A study of Drosophila melanogaster with 3 samples.

Results

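The 300 strongest binding regions of the Drosophila melanogaster protein HHEX were examined, out of the 5586 peaks that passed the authors' irreproducible discovery rate (IDR) step. They were chosen by the authors' signal value in the pooled peak list, highest first, so the signal itself is a description of the set and not a finding. The data are chromatin immunoprecipitation with sequencing (ChIP-seq) of whole embryos of mixed sex, 0 to 24 h old. All 3 biological replicates came from the transgenic strain CG7056-GFP, in which GFP is fused to the C-terminus of CG7056, the gene labelled HHEX, and chromatin sheared by sonication to 200 to 800 bp was precipitated with an antibody against GFP. There was 1 group and no second condition. The promoter that drives the fusion protein is not given in the sources used here, and whole embryos mix all cell types of these ages.

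HHEX belongs to the homeodomain family, transcription factors whose DNA-binding domain contacts short A/T-rich words built around a TAAT core. In vertebrates, Hhex is known for its roles in early endoderm, liver and blood development. Transcription begins at the transcription start site (TSS) of a gene, and the promoter around it is where most general regulators are loaded. Many ChIP-seq experiments also recover open promoters whatever protein is targeted. The control library was not analysed here, so regions enriched in any anti-GFP precipitation cannot be told apart from HHEX sites.

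The 300 peaks made up 5.37% of the list and held 21.3% of its summed signal. Their signal ran from 937 to 5323 with a median of 1261, and that of the remaining 5286 peaks from 156 to 933 with a median of 246. All 300 had the highest −log10 q in the list, 3.84, and so did 3138 of the remaining peaks, so only the signal separates them. The same 300 rows were also the strongest of the pooled list before the IDR step. Just inside the limit stood peaks at the promoters of the ribosomal protein genes RpL32 and RpS28b and of bgcn, a germline differentiation gene, each with a signal of 937. Just outside stood peaks at CHES-1-like and Trmt6, with 933 and 931.

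The sequences of the 4 strongest peaks, all of them with the summit outside any annotated untranslated region (UTR), are shown first. They are the stretch of each peak within 100 bp of the summit and outside UTRs, on the plus strand of dm6, from RefSeq genome release 6. Capitals mark the word CTACGCC on either strand, the word with the highest ratio of its share in the strongest peaks to its share in the others.

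Ugalt, rank 1, chrX:2703853-2703987: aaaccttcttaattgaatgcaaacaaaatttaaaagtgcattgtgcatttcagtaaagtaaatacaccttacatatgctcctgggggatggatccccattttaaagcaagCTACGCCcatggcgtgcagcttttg
ush intron, rank 2, chr2L:480957-481156: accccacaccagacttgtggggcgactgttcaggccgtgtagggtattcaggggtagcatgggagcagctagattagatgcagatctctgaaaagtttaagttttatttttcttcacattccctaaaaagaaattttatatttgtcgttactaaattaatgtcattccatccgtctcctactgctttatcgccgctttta
CG11050, rank 3, chr2L:6612608-6612807: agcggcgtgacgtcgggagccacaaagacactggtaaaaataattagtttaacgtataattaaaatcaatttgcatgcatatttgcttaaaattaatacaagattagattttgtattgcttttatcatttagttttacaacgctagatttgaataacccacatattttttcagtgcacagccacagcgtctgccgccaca
CG14100, rank 4, chr3L:19590525-19590721: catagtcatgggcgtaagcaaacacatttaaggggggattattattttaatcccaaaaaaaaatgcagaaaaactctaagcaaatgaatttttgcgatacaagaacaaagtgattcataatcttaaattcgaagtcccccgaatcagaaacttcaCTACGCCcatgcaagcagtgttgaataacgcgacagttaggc

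The next 3 peaks eligible for printing that hold CTACGCC are shown to compare where it lies, with a peak at rank 17 on an arm not printed here passed over.

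CG9663 intron, rank 14, chr2L:3302084-3302283: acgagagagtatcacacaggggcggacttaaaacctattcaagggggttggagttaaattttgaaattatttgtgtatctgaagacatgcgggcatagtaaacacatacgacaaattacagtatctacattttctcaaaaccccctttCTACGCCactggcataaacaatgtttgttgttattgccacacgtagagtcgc
Tcs5, rank 21, chr3L:5139403-5139602: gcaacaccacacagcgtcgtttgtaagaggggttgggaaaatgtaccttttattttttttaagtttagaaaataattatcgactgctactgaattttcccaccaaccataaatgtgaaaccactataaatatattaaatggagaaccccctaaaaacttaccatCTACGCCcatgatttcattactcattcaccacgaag
CG5611, rank 32, chr3R:27636073-27636272: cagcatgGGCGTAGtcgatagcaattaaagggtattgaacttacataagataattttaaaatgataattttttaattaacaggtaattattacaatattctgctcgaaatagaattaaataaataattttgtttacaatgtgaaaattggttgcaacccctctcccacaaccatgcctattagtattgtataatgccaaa

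For each of a pair of known promoter words, the strongest peak eligible for printing follows, with the word in capitals; peaks on an arm not printed here or with UTR bases over the summit or the word were passed over: TATCGATA, the DNA replication-related element, and GAGAGAG, a long form of the word read by GAGA factor.

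Atat, rank 64, chr3L:9426773-9426972: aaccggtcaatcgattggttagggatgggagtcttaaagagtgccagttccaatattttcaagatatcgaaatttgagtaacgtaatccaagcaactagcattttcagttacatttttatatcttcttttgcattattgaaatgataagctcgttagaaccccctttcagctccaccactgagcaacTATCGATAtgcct
Lk6 intron, rank 10, chr3R:11760953-11761152: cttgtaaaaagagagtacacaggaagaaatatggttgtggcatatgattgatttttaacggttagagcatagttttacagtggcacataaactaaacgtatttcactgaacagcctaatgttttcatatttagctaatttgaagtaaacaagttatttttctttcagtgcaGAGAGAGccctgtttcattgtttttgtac

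The strongest HHEX peaks were mostly promoter peaks. Of the 300 summits, 199 lay within 500 bp of an annotated TSS, a share of 66.3% (exact binomial 95% interval 60.7 to 71.7%, counting error only), beside 45.4% of all IDR peaks and 44.2% of the remaining ones. Introns held 74 summits (24.7%), beside 38.7% of all IDR peaks, and intergenic DNA held 21 (7.0%), beside 12.9% of all. Noncoding exons held 3, coding exons 2 and a 5′ UTR 1, and no summit of 300 lay in a 3′ UTR (exact upper limit 1.22%), against 1.12% of the remaining summits. Pooled regions outside the IDR list were promoter regions in only 23.5% of cases. The median distance to a TSS was 226 bp, against 716 bp for the remaining peaks. The excess at promoters depended on the distance used: within 100 bp of a TSS lay 17.3% of members and 18.5% of the remaining summits, and the excess of 22.1 percentage points became −1.21. Likewise the lower intronic share rested on taking promoters out first, since without a promoter class introns held 48.3% of members and 50.9% of the remaining summits.

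The same contrast appeared when each replicate list was ranked by its own signal. The replicate reads are also in the pooled list, and the 300 highest regions of replicates 1, 2 and 3 held 270, 260 and 270 members. The replicate values, here and below, are thus largely the same peaks again and describe the spread between lists. The promoter share of the own 300 highest regions was 64.3%, 67.7% and 66.0% for replicates 1, 2 and 3, and in the ranks that followed, up to 5586, it was 47.5%, 40.4% and 45.3%. The groups did not overlap, with means of 66.0% ± 1.67 and 44.4% ± 3.63 (SD, n = 3 lists). The intronic share was 24.3% ± 2.33 in the highest 300 and 38.9% ± 1.89 in the ranks that followed, again without overlap. A two-sided exact permutation test of the paired differences gave p = 0.25 for both shares and, later, for the base composition, and 0.25 is the smallest value that 3 lists allow, so no difference could pass 0.05. Nothing in the labels or files names a batch, and peaks within a list are not replicates.

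**Figure D1:**
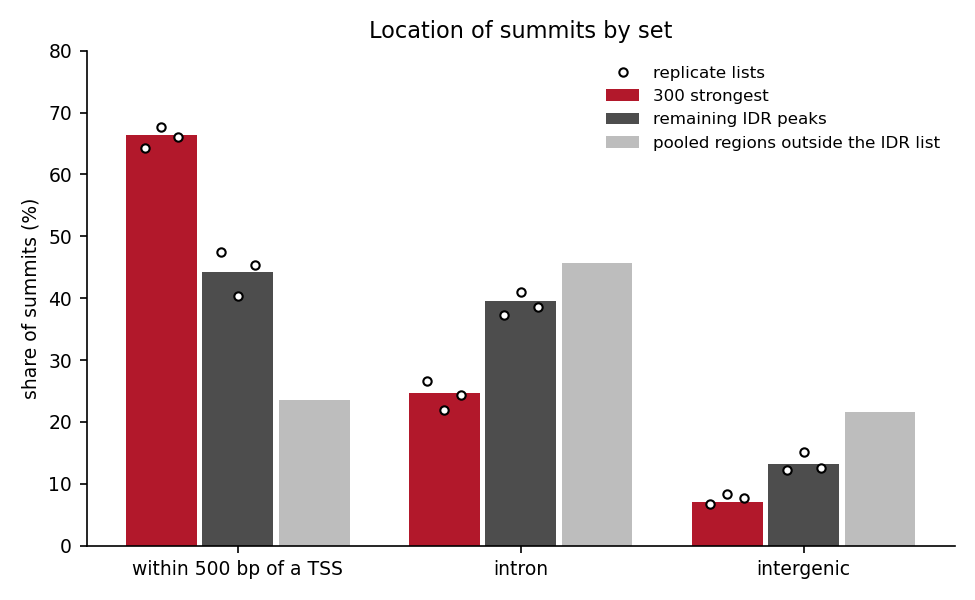
Share of peak summits (%) within 500 bp of a TSS, in introns and in intergenic DNA, for the 300 strongest peaks (red), the remaining IDR peaks (dark grey) and pooled regions outside the IDR list (light grey). White circles are the 3 replicate lists' own 300 highest regions and the ranks that followed, and the red bar at TSSs stands at 66.3% against 44.2% in dark grey.

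The promoter share fell step by step with rank in the pooled list. It was 66.3% in ranks 1 to 300, 57.0% in the next 300, 53.7% and 49.3% in the following pair of such bins, 43.3% between ranks 1201 and 2400, and 39.6% in the weakest bin. Replicate 2 covered the widest range, ending at a lower share than replicates 1 and 3.

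**Figure D2:**
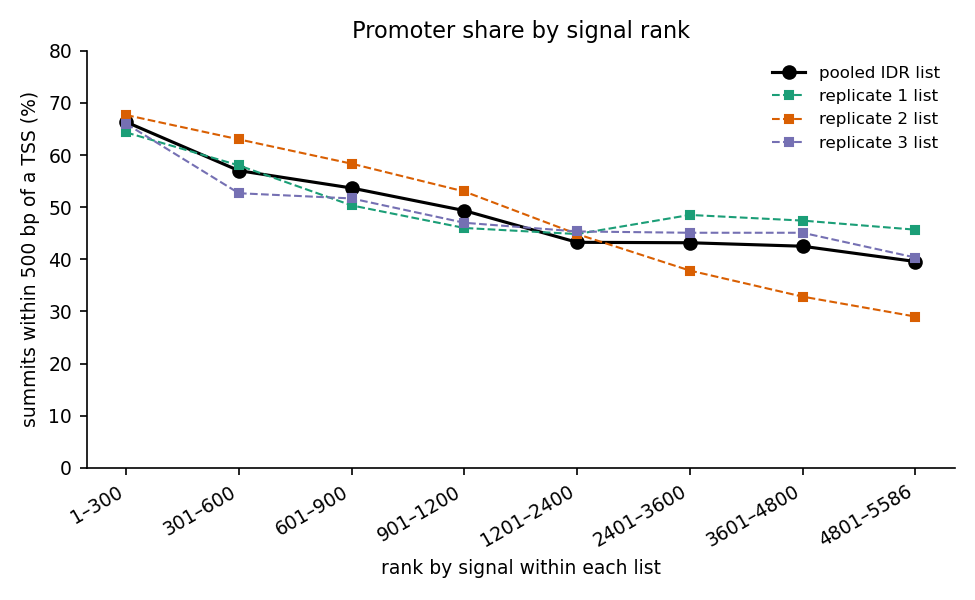
Share of summits within 500 bp of a TSS (%) against rank by signal within each list, for the pooled IDR list (black) and the 3 replicate lists (coloured dashes). All 4 lines start between 64.3% and 67.7% in ranks 1 to 300 and are lower in each later bin than in the first.

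Within promoters, the strongest summits sat a little upstream of the TSS. Of the 199 promoter summits, 173 (86.9%) were upstream of the nearest TSS, against 73.0% of the remaining promoter peaks. Within 100 bp of the TSS lay 52 of them (26.1%), against 41.9% of the remaining, and from there out to 200 bp lay 86 (43.2%), against 27.0%. In the replicate lists the upstream share was 88.2% ± 1.27 in the highest 300 and 71.7% ± 6.55 in the ranks that followed (SD, n = 3), without overlap. The median distances, 152 and 124 bp, were not ordered alike in all lists, since replicate 2 had 140 bp in its highest 300 and 143 bp afterwards. TSSs on both strands lay within 500 bp of 64 of the 199 summits (32.2%), close to the 31.0% of the remaining promoter peaks.

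**Figure D3:**
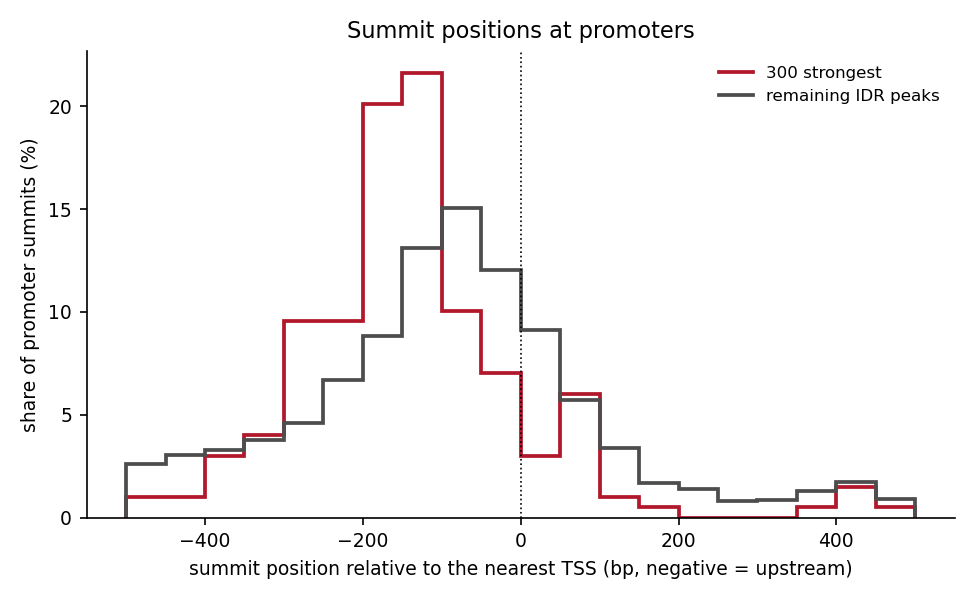
Share of promoter summits (%) by position relative to the nearest TSS, in bins of 50 bp with negative values upstream, for the 300 strongest peaks (red) and the remaining IDR peaks (grey). The red line is highest between 100 and 200 bp upstream, and the grey line peaks nearer to the TSS.

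Intronic members lay mostly in first introns. A first intron held 64 of the 74 (86.5%), against 68.2% of the remaining intronic peaks. The number of an intron was the lowest over the overlapping transcripts, coding genes first. Within 2000 bp of the nearest TSS, of the host or of another gene, lay 49 (66.2%), against 40.7%. The median distance of intronic members to that TSS was 1376 bp, against 2689 bp. The 21 intergenic members lay 524 to 31934 bp from a TSS, with a median of 3324 bp. They were not nearer than the remaining intergenic peaks, whose median was 2710 bp (501 to 37743 bp).

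The highest signal of the whole list, 5323, lay 35 bp upstream of Ugalt, which encodes a transporter of UDP-galactose into the Golgi. Its signal was 1691, 2009 and 1650 in replicates 1, 2 and 3, rank 1 in every replicate list. The second peak, with a signal of 4417, lay in the first intron of ush, which encodes a cofactor of GATA factors, and its nearest TSS was that of cbt, a zinc finger factor gene, at 1368 bp. Its replicate signals were 1494, 1469 and 1390. The third, in the second intron of CG11050, had 1419, 1472 and 1403, and the fourth, 97 bp upstream of CG14100, had 1235, 1742 and 1264. These 4 peaks also filled ranks 1 to 4 of every replicate list, and replicate 2 was the highest for the first, the third and the fourth. Replicate values are the authors' and were not rescaled between lists, so the pooled value is on a scale of its own.

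Below these 4, the pooled signal dropped to 3172 at rank 5, a peak 14 bp from the TSS of a noncoding RNA gene, lncRNA:CR31840. The peak at rank 6, with 3170, lay in an exon of lncRNA:Vinr. Of the 40 strongest peaks, 26 were at promoters, 10 in introns, 3 intergenic and 1 in a noncoding exon, and 28 had a protein-coding TSS within 1000 bp.

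The genes nearest the 40 strongest peaks are named, some of them with what they are known to do. No theme was counted or tested among them. The peak at rank 8 was in the second intron of Trl, which encodes GAGA factor itself, with replicate signals of 1026, 1110 and 971. The peak at rank 11, inside the Polycomb group gene ph-p and 469 bp upstream of 1 of its TSSs, had 916, 1206 and 907. The peak at rank 13, 74 bp into Chro, which encodes the chromodomain protein Chromator, had 895, 1036 and 861. In all 3, replicate 2 gave the highest value. HmgZ, an HMG-box gene, followed at rank 18, with an intronic summit 559 bp upstream of its TSS, and Psc, another Polycomb group gene, was the nearest coding gene at rank 38, with its TSS 4234 bp away and that of lncRNA:CR44339 nearer.

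Next to the peaks at ranks 9, 10, 20 and 22 were PNPase, a mitochondrial RNA exonuclease gene, Lk6, a kinase gene acting on a translation initiation factor, Art3, an arginine methyltransferase gene, and Tlk, the Tousled-like kinase gene. Fkbp14 at rank 24, Gapdh2 of glycolysis at rank 27, eIF6 at rank 36 and larp, an RNA-binding protein gene, at rank 37 all had the summit 120 to 344 bp from a coding TSS. The gene px, named for its wing vein phenotype, stood at rank 7, sbb at rank 28, the bZIP factor gene Atf3 at rank 34 and chif, a replication factor gene, at rank 40. The sbb peak was far from any TSS, at 20102 bp. The other protein-coding genes nearest to the 40 were hll, CG4004, CG32772, CG9663, mRpL41, CenG1A, CG1888, CG18549, Tcs5, CG13323, Tina-1, tara, jp, CG13390, Pal1, CG5611, CG31145, eEF1gamma and CG1635.

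**Figure D4:**
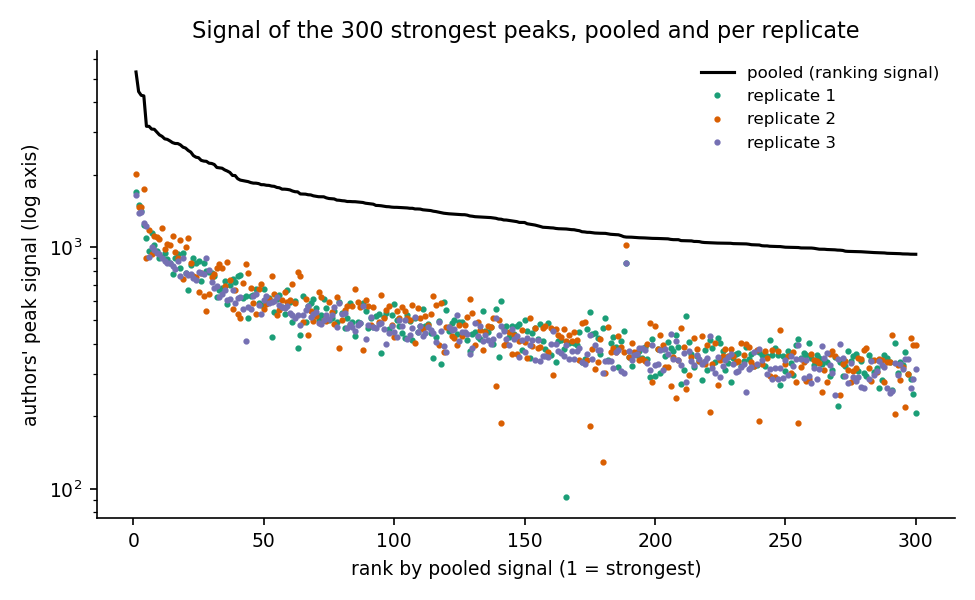
The authors' peak signal (log axis) of the 300 strongest peaks against their rank, as the pooled value that ranked them (black line) and as the value of the region at the same summit in each replicate list (coloured points). The replicate points follow the pooled line with a few low points, the lowest at 93.0 in replicate 1, and 5 missing values are not drawn.

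The replicate lists share their reads with the pooled list, so their ranks are a description. Of the 300 members, 270, 260 and 270 lay in the 300 highest regions of replicates 1, 2 and 3, and 217 did so in all 3 lists. These 217 were the only IDR peaks placed there in all 3, 3.88% of the list. A further 66 members were in the highest 300 of 2 lists and 17 of 1 list, and none was in no list. Within the 600 highest were 297, 289 and 298. The signal of a member varied between replicates by a median coefficient of variation of 11.8% (n = 295 with a region in every list), against 22.2% for the remaining peaks (n = 4725). Spearman's rho over members was 0.651 for replicates 1 and 2, 0.836 for replicates 1 and 3, and 0.760 for the pair of 2 and 3. Over all IDR peaks with a region in both lists it was 0.660, 0.752 and 0.699 in the same order. No p is given, since peaks share their libraries. After scaling each list to the median signal of the members, replicate 2 was the highest for 132 of 295 members, replicate 1 for 90 and replicate 3 for 73.

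A few members disagreed between lists. No region of replicate 2 lay within 1000 bp of the summit at RpL28, rank 270, whose signals in replicates 1 and 3 were 221 and 346. The other 4 members of this kind lacked a region over the summit in 1 list although a region ended within 15 bp of it: an intron of simj at rank 93, an intron of Prps at rank 242, bin3 at rank 249 and a site near CG43245 at rank 281. The next 3 in disagreement were chosen after their values were seen. The peak at Dic1, rank 166, had 93.0 in replicate 1, where it ranked 2865, but 410 and 394 in replicates 2 and 3. The peak at C1GalTA, rank 180, had 463 and 302 in replicates 1 and 3 and 129 in replicate 2. The peak at CG5335, rank 175, had 539, 183 and 435. The CG9663 peaks at ranks 14 and 189 are summits 204 bp apart in a single called region, the only region with more than 1 member, so the replicate values of rank 189 are those of rank 14.

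Members were spread over all arms. Arm X held 21.3% of them and 17.4% of the remaining peaks, and arm 2L held 22.7% of them and 18.4% of the remaining. The shares on 2R were close, at 18.3% and 18.0%. Members were fewer on 3L, with 16.7% beside 21.7%, and on 3R, with 20.7% beside 24.3%. In the replicate lists the share of the highest 300 was above that of the following ranks in all 3 for X and 2L and below it in all 3 for 3L and 3R. A second member lay within 5 kb of 41 of the 299 members that share an arm with another, and within 1 kb of 6. By coding host gene, or nearest coding TSS for peaks in none, 287 coding genes were assigned a member and 26 had more than 1. No such counts for the remaining peaks are given here, so closeness is not shown to be particular to members. The genes with 3 were CHES-1-like, a forkhead factor gene, tara, a gene interacting with the trithorax group, and simj, a gene of the NuRD chromatin complex. Their gene bodies held 12, 9 and 10 IDR peaks of any rank. The members at tara ranked 26, 145 and 161, the first and the last of them outside the gene with its TSS 3159 and 1134 bp away, those at CHES-1-like 133, 243 and 252, and those at simj 93, 181 and 225. Some pairs were chosen after their values were seen, each with both summits inside the gene. They were at Raf, the kinase gene of the Ras pathway, osa of the Brahma complex and the nuclear receptor gene Hr4. The osa summits, at ranks 52 and 73, lay in an exon of lncRNA:CR46035 and 141 bp from the TSS of lncRNA:CR46036. Their nearest coding TSSs were 13924 and 13529 bp away.

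Genes were then counted by function, a gene being counted where any of its TSSs had a member summit no more than 1000 bp away. A peak can thus count for more than 1 gene, and a counted gene need not be the nearest. Of 13945 protein-coding genes, 306 had a member, 2.19%, and 23.2% had any IDR peak. Among genes with any IDR peak, 9.46% had a member. Of the cytosolic ribosomal protein genes, which encode the ribosome's own proteins, 18 of 91 had a member, or 19.8%, and 78 of the 91 had an IDR peak. Of those 78, 23.1% had a member. Among genes with an IDR peak, the share was 35.7% for initiation and elongation factors (5 of 14). It was 36.4% for the insulin and TOR pathway (4 of 11) and 23.1% for the Polycomb, Trithorax and Brahma list (3 of 13). These 3 lists hold too few genes to be ranked against the ribosomal list. The 4 ribosomal protein genes with the strongest peak were RpS27 at rank 44, RpL7 at rank 72, RpL14 at rank 131 and RpL23A at rank 152. Most ribosomal protein peaks thus stood in the lower ranks of the set. Initiation and elongation factors had 5 of 52 genes, among them eIF2Bbeta, which has a TSS within 1000 bp of the rank 1 peak at Ugalt, eIF6 at rank 36, eIF4EHP at rank 101 and eEF1gamma at rank 118. Mitochondrial ribosomal proteins had 4 of 73, which were mRpL41, mRpS23, mRpS10 and mRpL23. The summits counted for mRpS23 and mRpS10, at ranks 16 and 20, lay nearer to TSSs of CenG1A and Art3.

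The Polycomb, Trithorax and Brahma list, of chromatin regulators, had 3 of 33 (9.09%), namely ph-p, brm at rank 115 and ph-d at rank 150. Insulator proteins had 2 of 35, Chro and Cp190 at rank 156, and the list of histone variants and HMG proteins had 2 of 27, HmgZ and Dsp1 at rank 232. The insulin and TOR pathway had 4 of 31: Lk6, REPTOR at rank 117, Sesn at rank 126 and the receptor gene InR at rank 238. RNA-binding proteins had 4 of 54, with elav at rank 65, msi at rank 119, brat at rank 185 and mub at rank 280. Heat shock proteins had 2 of 30, Hsp83 at rank 41 and Hsp27 at rank 157.

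The other lists of signalling pathways and the lists of transcription factors had at most 3 genes each. Hedgehog and Wingless genes had 2 of 38, sgg, a kinase gene of the Wingless pathway, and the corepressor gene gro. Notch had 2 of 31, gro and numb, and the EGF and FGF receptor list had 2 of 30, RasGAP1 and the ligand gene spi. The ecdysone list had E23 alone of 35, and the circadian list cbt and sgg of 22. Among transcription factors, BTB and zinc finger genes had cbt alone of 76, bHLH and leucine zipper genes had Atf3 and gce of 61, and Forkhead, Sox and related genes had Sox14, fkh and CHES-1-like of 74. The cytoskeleton list had Mtl alone of 65 and the secretory list Ugalt and CenG1A of 56.

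No member lay at a TSS of the 8 Hox genes, of 73 other homeobox genes, of 25 maternal, gap and pair-rule genes, or of the lists for Dpp and activin (21 genes), Toll, Imd and JAK/STAT (26), Hippo (20), the cell cycle (43), apoptosis (14), odorant and gustatory receptors (120) and cuticle proteins (95). Weaker peaks did lie at some of these, at 9 of the 73 homeobox genes and at 13 of the 43 cell cycle genes, whereas the Hox list had none. At the background share a list of this size would hold few or no members, so counts of 0 to 2 are not results about the list. Noncoding genes were also near members: the nearest TSS was that of an ncRNA gene for 24 members, of a tRNA gene for 2 and of a pseudogene for 1. An ncRNA gene lay within 1000 bp of 14.3% of members, close to the 11.5% of the remaining peaks. For tRNA genes the shares were 0.667% and 0.473%. A snoRNA gene lay within 1000 bp of 6 members (2.0%, against 0.813% of the remaining peaks). Those at ranks 131, 202, 220 and 270 were the peaks already counted for RpL14, RpS4, RpL13A and RpL28.

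The strongest peaks had a deeper A/T-rich centre between more GC-rich shoulders. In the 100 bp at the summit the mean GC content was 31.9%, against 36.2% for the remaining peaks and 42.5% for pooled regions outside the IDR list. In the stretches 100 to 200 bp away on either side it was 44.8%, against 41.3% and 42.6%. The shoulders exceeded the centre by 12.9 percentage points in members, by 5.06 in the remaining peaks and by 0.0843 in the regions outside the list. The shoulders were richer in GC than the centre in 85.3% of members and 65.6% of the remaining peaks.

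The step from centre to shoulder was 13.8, 10.8 and 11.6 percentage points in the own 300 highest regions of replicates 1, 2 and 3, and 5.15, 4.61 and 4.18 in the ranks that followed. The groups did not overlap, with means of 12.1 ± 1.54 and 4.65 ± 0.485 (SD, n = 3). It was present away from promoters too, at 14.7 points for the 101 other members and 6.66 for the other remaining peaks, and at promoters it was 12 against 3.04. Further out, 800 to 1000 bp from the summit, GC content was 42.7% for members and 42.2% for the remaining peaks. Members were also narrower as called, with a median width of 342 bp against 424 bp, and 78.8% of the remaining peaks and no member had exactly that modal width of 424 bp. The part of width and summit precision in the base composition was not tested.

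**Figure D5:**
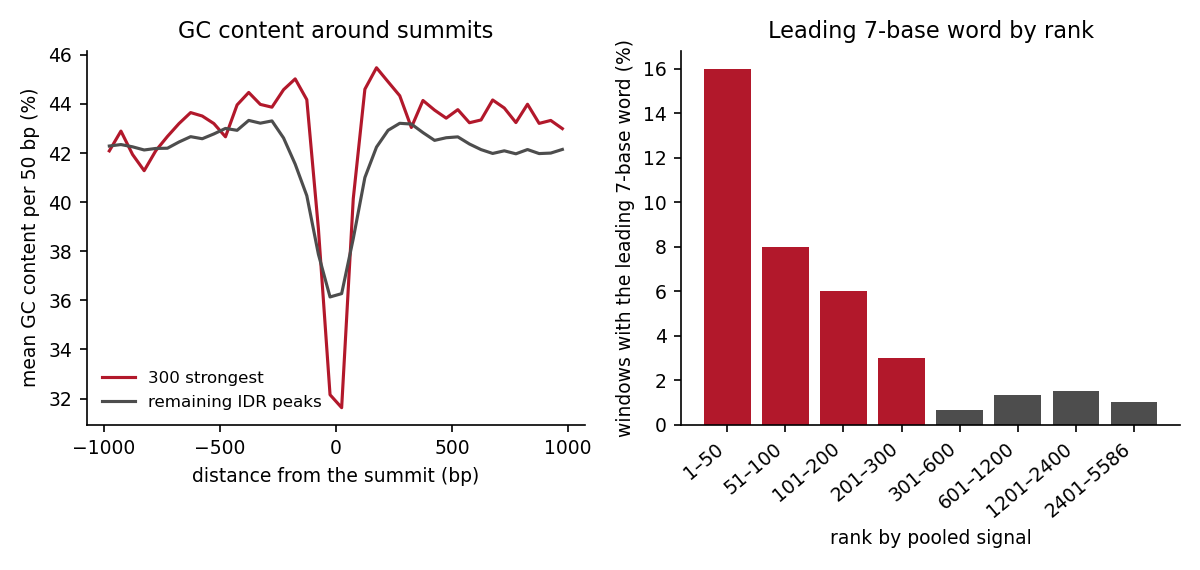
Left, mean GC content (%) in bins of 50 bp against distance from the summit, for the 300 strongest peaks (red) and the remaining IDR peaks (grey), with an axis that does not start at 0. Right, share of 200 bp summit windows (%) with the leading 7-base word by rank of the pooled signal, falling from 16% in ranks 1 to 50 to 0.667% in ranks 301 to 600.

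Among words of the homeodomain type, the longest was somewhat more common in members. The long word YATTAAR, in which Y is either pyrimidine and R either purine, occurred on either strand in the 200 bp at the summit in 105 members (35.0%), beside 26.8% of all IDR peaks, 26.4% of the remaining ones and 18.4% of regions outside the list. In the replicate lists it was 35.8% ± 1.35 in the highest 300 and 25.5% ± 1.30 afterwards (SD, n = 3), without overlap, and 800 to 1000 bp away it was 18.3% and 18.4%. At promoters alone the shares were 36.2% and 27.2%. Members with the word had a mean GC content of 32.6% in this window and those without it 37.4%, and the part of base composition in this difference was not tested. None of the 4 strongest peaks printed above holds YATTAAR. The shorter cores TAATTA and CAATTA differed little, at 18.3% against 16.5% and 20% against 18.8%, and in replicate 2 both were lower in the highest 300.

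Other fixed words gave small differences. The TATA box word TATAAA occurred in 40% of members, beside 33.9% of all IDR peaks, and the repeat CACACA in 11.7%, beside 17.6%. The element TATCGATA was in 3.67%, beside 2.35%, and all of these members were promoter peaks. Motif 1, GGTCACAC, was in 1.0% against 1.93% of the remaining peaks. GAGAG was in 23.3% of members and 24.6% of the remaining peaks. The short BEAF word CGATA, at 25.7% and 25.8%, and the Zelda word CAGGTA, at 4.0% and 4.65%, were closer still. TATCGATA contains CGATA, and GAGAGAG contains GAGAG, so these words overlap. Over all 2080 words of 6 bases, those with the largest excess were TTAAAA (55.3% against 42.8%), ATTTAA and TTTAAA, all of A and T only, and the largest deficit was that of CAAACA (15.3% against 25.8%).

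A G/C-rich word of 7 bases stood out by ratio, chosen after the sequences were seen and so given with no test. CTACGCC, on either strand, was in 21 members (7.0%), beside 1.45% of all IDR peaks, 1.14% of the remaining ones and 1.04% of regions outside the list. It led 1174 words that each occurred in at least 12 members, and overlaps GGGCGTA (5.0% against 1.15%), TACGCCA and ACTACGC, also among the first 5. Its share was 16% in ranks 1 to 50, 8.0% in ranks 51 to 100, 6.0% in the next 100, 3.0% in the last 100 members and 0.667% in the 300 peaks that follow. In the replicate lists it was 7.22% ± 0.192 in the highest 300 and 1.19% ± 0.0501 afterwards (SD, n = 3). The highest 300 of replicates 1, 2 and 3 held 270, 260 and 270 of the members from which the word was picked. A similar share there was largely built in and is no separate support.

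The word lay beside the summit, 16 to 93 bp away at its first match in a window that reaches 100 bp. The median distance was 69 bp, and 5 of the 21 lay within 50 bp, as the sequences of Ugalt, CG14100, CG9663 and Tcs5 show on the right side and that of CG5611 on the left. Narrowing the window to 100 bp left it in 1.33% of members, and 800 to 1000 bp away it was in 1.0%. Of the 21 members, 20 were promoter peaks (10.1% of the 199, against 1.33% of the remaining promoter peaks), and the CG9663 peak was intronic. Others, chosen after their values were seen, were CG1888, MFS10, amon, a prohormone convertase gene, mRpL23, moody, a receptor gene of the blood-brain barrier, RpL24 and wun, a lipid phosphatase gene guiding germ cells. The 21 had a median signal of 1558, against 1221 for the other members. No factor is assigned to the word here.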

How the data were processed

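Region lists on dm6 were used, namely 30000 regions for each of 3 replicates and for their pooled reads, and the thresholded IDR list. The signal of a region is a value deposited by the authors, used to rank regions within a list, and the −log10 q is likewise deposited, per the file layout. Which aligner, caller and threshold of the IDR step the authors used is not given in the sources used here. All replicates shared a control alignment, and read depth is unknown. Summits were annotated with Ensembl release 115, without transposable elements, and sequence came from RefSeq release 6. A promoter summit lies within 500 bp of a TSS, and that class was taken first. Replicate values are those of the strongest region over a summit. Of the symbols in 29 gene lists, 20 matched no gene. The members, lists and words were chosen with earlier results of these data known. Named genes are those nearest the 40 strongest members, those with 3 or more members, up to 4 per list, the 5 members with the poorest worst rank, and 3 on either side of the limit, of which 1 is not reported here. Any other gene was chosen after its values were seen. Calculations used Python 3.11.15, numpy 2.4.6, pandas 2.3.3 and scipy 1.17.1, and were tested on simulated data.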

Additional observations from a re-analysis of the deposited data

How the results depend on the processing

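The promoter share of 66.3% was 17.3% with a TSS distance of 100 bp, 79.3% with 1000 bp, 63.0% with TSSs of protein-coding genes and 61.7% for the 600 strongest peaks, and 64.3 to 67.3% when a replicate was left out. The intronic share of 24.7% was 46.3% at 100 bp, 15.3% at 1000 bp, 48.3% with no promoter class and 27.8% for the 600 strongest. These shares follow from the definitions of the classes. Mean GC content in 200 bp, 35.7%, was 31.9% in 100 bp and 40.3% in 400 bp. The 306 genes with a member became 687 at 5000 bp, 154 for the 150 strongest and 562 for the 600 strongest. The promoter share of members exceeded that of the remaining peaks by 22.1 percentage points and that of pooled regions outside the IDR list by 42.8. With other class definitions, added after seeing the data, that excess was −1.21 at 100 bp, 24.5 at 1000 bp and 21.8 with TSSs of protein-coding genes, and the intronic difference of −14.8 was −2.34 at 100 bp and −2.61 with no promoter class. Members in the highest 300 of all 3 lists numbered 217, and 211 to 221 with other overlap rules or ranking by −log10 q. In the highest 600 there were 285, and 233 to 248 were in the highest 300 of both other lists when a replicate was left out. Ranking by −log10 q with ties by signal gave the same 300 members, and leaving out a replicate kept 279, 273 and 282 of them. For the 16 fixed words, 61 of 112 alternative shares moved by more than the SD between lists. The share with CTACGCC, whose alternatives were chosen after seeing the data, was 11.3% in 400 bp, 10% for the 150 strongest and 3.83% for the 600 strongest. With 1 group, no pairing of replicates between groups arises. Without read counts, the precision of a single peak's signal is unknown.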
